A study of Mus musculus with 38 samples.

Results

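The genes described here are 39 mouse genes that act on platinum adducts and DNA crosslinks. They were chosen by name, as genes of the Fanconi anemia pathway, homologous recombination, nucleotide excision repair, translesion synthesis and the checkpoint kinases, and each was found by its Ensembl gene identifier among the 55487 genes of both count tables. All 39 passed the filter on low counts in tumors and in cell lines. The RNA came from omental tumors of 2 mouse models of high-grade serous ovarian cancer (HGSOC) and from the same cancer cells in monoculture. 60577 cells grew in female FVB mice and HGS2 cells in female C57BL/6J mice, so model and strain cannot be told apart, and each model is 1 cell line injected into the peritoneal cavity. The alleles engineered into the lines were not given in the sources used here. Chemo mice received 3 weekly doses of carboplatin with paclitaxel and control mice received the vehicle, with treatment beginning 3 weeks after injection for 60577 and 7 weeks after it for HGS2. Tumors were taken a day (TP1), a week (TP2) or 3 weeks (TP3) after the last dose. Each tumor came from its own mouse. 60577 had 3 TP1 controls, 3 TP1 chemo tumors, 3 TP2 controls, 4 TP2 chemo tumors and 4 TP3 chemo tumors. HGS2 had 3 TP1 controls, 3 TP1 chemo tumors, 4 TP2 controls, 3 TP2 chemo tumors and 4 TP3 chemo tumors, of which TP3 replicate 1 was left out of the fits because the study's own tables lack it. There were no TP3 controls, so TP3 chemo tumors were set against TP2 controls, where treatment and time cannot be told apart. Each line in monoculture had 2 libraries.

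Carboplatin joins DNA bases within a strand or across both strands, and paclitaxel acts on microtubules. Adducts within a strand are removed by nucleotide excision repair or bypassed by translesion polymerases. A crosslink between strands stalls the replication fork, where the Fanconi core complex ubiquitinates FANCD2 and FANCI, nucleases unhook the crosslink, translesion polymerases fill the gap and homologous recombination restores the broken strand under ATR and ATM signaling. Loss of BRCA1 or BRCA2 is a known route to platinum sensitivity in HGSOC, and many recombination genes are transcribed mainly in dividing cells.

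The libraries held 17839635 to 49299442 counts in tumors and 31633121 to 42461995 in cell lines. Levels are given as CPM, counts scaled to a common library size with TMM factors, in the order of the replicate numbers. Of 9 epithelial markers 7 were above 1 CPM in every TP2 control of 60577, Pax8 and Cldn4 were below 1 CPM in each of its controls, and all were lower in sum in HGS2, where the summed level of the 9 markers was 21.3 to 796 CPM in controls against 1588 to 2908 CPM in 60577 controls. In HGS2 controls Pax8, a marker of the tubal lineage, was at 0 to 0.0744 CPM. Pancreatic acinar genes exceeded 50000 CPM in 3 HGS2 tumors, TP1 control 3, TP2 control 2 and TP3 chemo 2, so the counts of genes called in comparisons with HGS2 tumors were also computed without them.

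In 60577 tumors most of the genes that act at the fork were lower after chemo, and several excision repair genes were higher. A gene was called when its adjusted p was below 0.05 in the edgeR quasi-likelihood test over 16241 genes. At TP1, 22 of the 39 genes were lower and 4 were higher in chemo tumors, where 16.2% and 17.1% of all genes tested were called in those directions. At TP2, 19 were lower and 9 higher, against 29.2% of all genes in each direction. At TP3, 22 were lower and 5 higher than in TP2 controls, against 26.0% and 25.3% of all genes. The median log2 fold change of the 39 genes was -0.44, -0.36 and -0.58 at the 3 time points, and that of all genes tested was 0.00 at TP1, 0.03 at TP2 and 0.00 at TP3. With a log2 fold change below -1 as a further condition, 12, 10 and 14 of the 39 were called lower, against 5.97%, 9.61% and 10.2% of all genes, and none was called higher. Bulk RNA does not tell fewer cells of a type from less RNA per cell.

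The same 17 genes were called lower in each of the 3 comparisons: Bard1, Blm, Brca2, Brip1, Chek1, Chek2, Fancb, Fancd2, Fanci, Palb2, Polh, Rad51b, Rad51c, Rad54b, Rad54l, Xrcc2 and Xrcc3. Xpa and Ercc4 were called higher in each, and Fancl, Fancm, Rev1 and Slx4 in none. No gene was called in opposite directions at different time points. Shares of all genes called in the same direction in all 3 comparisons are not given here, so these counts have no background beside them. Log2 fold changes are given with their standard error after ±. The TP2 and TP3 comparisons share their control tumors, so they are not independent of each other.

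**Figure D1:**
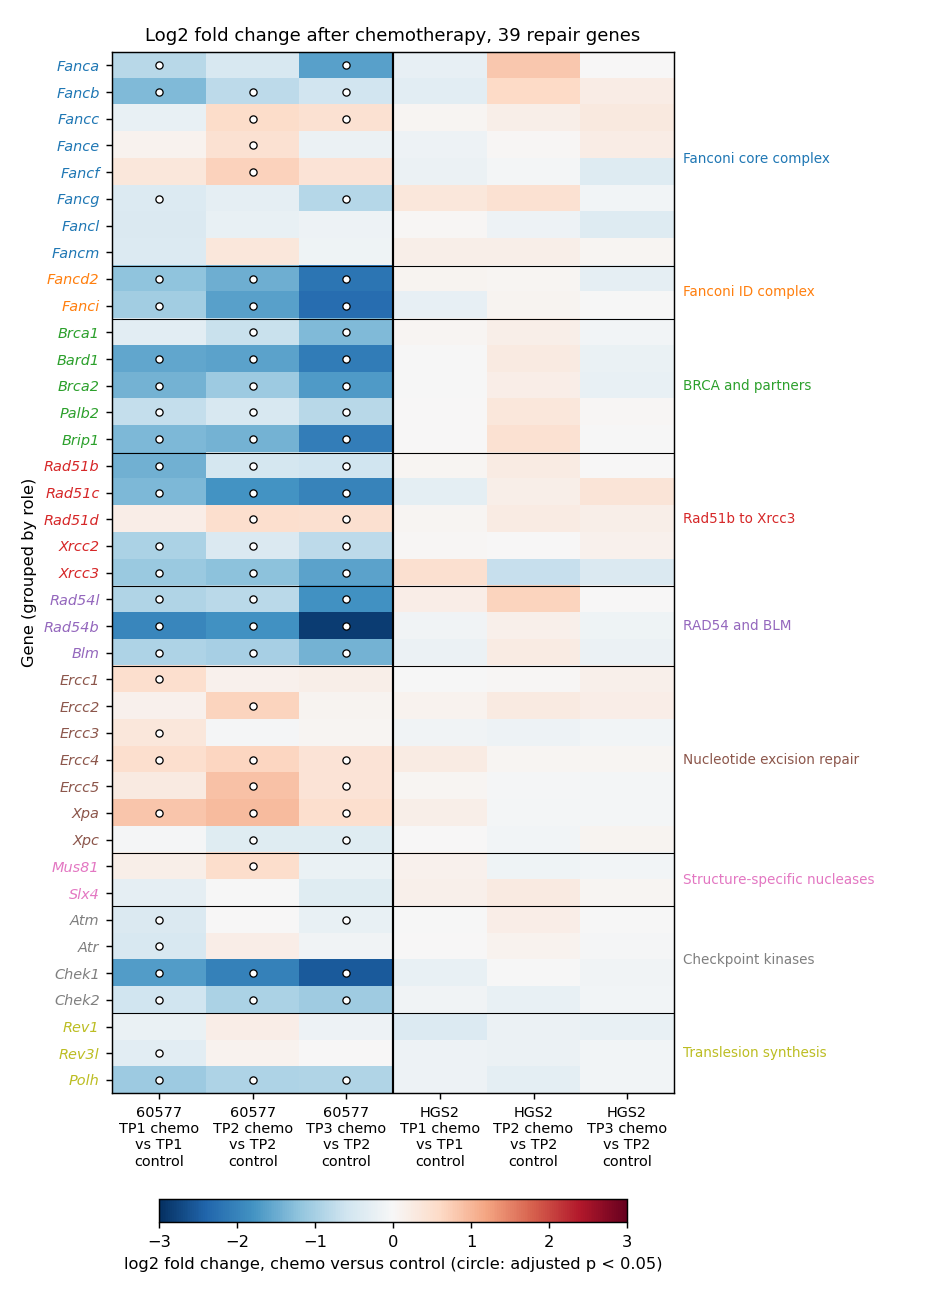
Log2 fold change (color) of the 39 genes, in rows grouped by role, in the 6 comparisons of chemo with control tumors, in columns, with circles at an adjusted p below 0.05. Blue cells fill most of the Fanconi ID, BRCA, Rad51b to Xrcc3 and RAD54 rows of the 3 columns of 60577, excision repair genes are mostly red there, and no cell of HGS2 carries a circle.

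In all 5 comparisons within HGS2, 0 of the 39 genes and 0% of all genes were called by edgeR, and none of the 39 was called by limma-voom or DESeq2 either. At an unadjusted p below 0.05, 413, 1234 and 407 genes passed in chemo against control tumors at TP1, TP2 and TP3, and among the 39 genes only Fanca at TP2 (log2 fold change 0.81 ± 0.37, SE). The median log2 fold change of the 39 genes in HGS2 was 0.02, 0.09 and -0.03. The median standard error of the 39 genes was 0.25, 0.24 and 0.24 in these comparisons and 0.16, 0.15 and 0.15 in 60577, so changes of a given size were harder to detect in HGS2. HGS2 TP1 control 1 had the highest level of Bard1, Brca1, Brca2, Brip1, Fancd2, Fanci and Chek1 among the fitted HGS2 tumors.

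The promoters of 4 genes are shown because these genes were lower in all 3 comparisons in 60577 and, of the 17, had the smallest p at TP2. Each runs from 250 bases before to 50 bases after the RefSeq start in GRCm38.p6, 5′ to 3′ on the strand of the gene, which is the minus strand for all 4. Capitals mark an E2F-like motif (TTTCCCGC, TTTGGCGC or TTTCGCGC on either strand) or a CHR-like motif (TTTGAA on either strand), letters found at many genes of the cell cycle. The windows are chr1:71102923-71103222 for Bard1, chr9:36726609-36726908 for Chek1, chr11:87404905-87405204 for Rad51c and chr17:46202592-46202891 for Polh. They lie at the 5′ ends of genes annotated in GENCODE on GRCm38 at chr1:71027498-71103146 (ENSMUSG00000026196), chr9:36708482-36727065 (ENSMUSG00000032113), chr11:87376645-87404954 (ENSMUSG00000007646) and chr17:46171355-46202645 (ENSMUSG00000023953).
Bard1: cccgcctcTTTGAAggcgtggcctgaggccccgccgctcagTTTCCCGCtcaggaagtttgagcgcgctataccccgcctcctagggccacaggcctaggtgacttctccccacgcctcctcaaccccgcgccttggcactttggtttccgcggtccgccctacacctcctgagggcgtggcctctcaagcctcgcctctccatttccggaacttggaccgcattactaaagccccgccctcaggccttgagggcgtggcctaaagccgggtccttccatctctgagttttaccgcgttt
Chek1: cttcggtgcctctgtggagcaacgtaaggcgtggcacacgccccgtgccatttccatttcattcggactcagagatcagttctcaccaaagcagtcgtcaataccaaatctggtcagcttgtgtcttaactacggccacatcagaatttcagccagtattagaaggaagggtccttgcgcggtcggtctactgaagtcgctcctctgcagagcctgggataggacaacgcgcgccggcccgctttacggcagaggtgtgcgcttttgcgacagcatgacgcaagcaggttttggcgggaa
Rad51c: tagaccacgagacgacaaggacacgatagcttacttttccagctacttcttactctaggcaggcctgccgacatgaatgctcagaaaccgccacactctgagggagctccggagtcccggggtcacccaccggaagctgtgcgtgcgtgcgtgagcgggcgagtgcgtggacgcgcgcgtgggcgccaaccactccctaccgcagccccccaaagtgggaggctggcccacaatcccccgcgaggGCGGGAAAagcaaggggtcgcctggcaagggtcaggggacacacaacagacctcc
Polh: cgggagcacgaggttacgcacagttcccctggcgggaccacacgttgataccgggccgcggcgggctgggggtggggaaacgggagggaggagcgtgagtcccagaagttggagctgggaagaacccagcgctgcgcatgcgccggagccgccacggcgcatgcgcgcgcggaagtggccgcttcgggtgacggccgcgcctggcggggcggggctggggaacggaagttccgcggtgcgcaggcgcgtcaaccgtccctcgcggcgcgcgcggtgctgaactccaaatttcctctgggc
Bard1 carried TTTCCCGC at -209 and TTTGAA at -242 from its start, and Rad51c carried TTTCCCGC on the opposite strand at -5, printed as GCGGGAAA. Neither motif, in these exact letters, was in the Chek1 and Polh windows. The RefSeq start of Chek1 lies 407 bases inside the annotated gene, so its window holds no sequence upstream of the gene. The Chek1 window ends in gcgggaa, the start of GCGGGAAA, and its next base lies outside the window. Of the 39 genes, 32 had an entry in the promoter table. The entry used lay 65533 bases from the annotated gene start for Fancc and 2092 bases from it for Slx4. An E2F-like motif was in 5 of the 32 (Bard1, Brca2, Chek2, Fancg and Rad51c), 15.62%, and in 1.84% of all 32817 promoters of this length. A CHR-like motif was in 6.25% of the 32 and 17.89% of all, and CCAAT on either strand was in 62.5% and 37.39%. These matches are letters in a window, not shown binding sites.

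The Fanconi core complex is the ubiquitin ligase that recognizes a stalled fork. Of its 8 genes, those called in 60577 went in both directions. FANCL carries the ligase activity and FANCM anchors the complex to DNA, and neither gene was called. Fancl was at 6.56 to 8.43 CPM in controls and 5.21 to 8.11 CPM in chemo tumors of 60577, and at 3.00 to 5.80 CPM and 3.25 to 4.49 CPM in HGS2 controls and its TP1 and TP2 chemo tumors. At TP1 Fancb (log2 fold change -1.33 ± 0.21), Fanca (-0.82 ± 0.25) and Fancg (-0.42 ± 0.15), genes of core subunits, were lower. At TP2 Fancb was lower (-0.80 ± 0.20), and Fancf (0.68 ± 0.21), Fancc (0.55 ± 0.15) and Fance (0.46 ± 0.14) were higher. With the replicate number as a block Fanca was also called lower at TP2 (-0.66, adjusted p = 0.0130, against -0.47 ± 0.23 and 0.0927 without it). At TP3 Fanca fell by 1.62 on the log2 scale, Fancg by 0.85 and Fancb by 0.58, and Fancc was higher by 0.46. At TP1 the call of Fancg was lost without any 1 of the 6 tumors (-0.47 to -0.35, adjusted p = 0.0614 to 0.145) and that of Fanca without TP1 control 2 or 3 or TP1 chemo 1 or 2 (-0.79 to -0.76, adjusted p = 0.0544 to 0.0666). Fancf lost its TP2 call without TP2 control 3 (0.55, adjusted p = 0.0526). At TP3 Fancb lost its call without TP2 control 1 or 3 or TP3 chemo 2 or 4 (-0.53 to -0.50, adjusted p = 0.0569 to 0.0766), and Fancc without TP2 control 2 (0.39, adjusted p = 0.0742). Exons of Fancc, Fancf, Fancl and Fanca overlap other genes over 18.6%, 15.0%, 13.7% and 10.5% of their length, where reads may be shared.

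FANCD2 and FANCI form the ID complex, the substrate that the core complex ubiquitinates. Fancd2 was at 13.1, 11.2 and 12.6 CPM in TP1 controls and 10.9, 12.1 and 12.4 CPM in TP2 controls of 60577. In chemo tumors it was at 4.76, 5.56 and 5.47 CPM at TP1, 3.73, 5.25, 3.98 and 4.33 CPM at TP2 and 2.38, 1.83, 1.97 and 4.05 CPM at TP3. All 11 chemo tumors lay below all 6 controls, with log2 fold changes of -1.22 ± 0.23 (adjusted p = 0.00122), -1.46 ± 0.22 (adjusted p = 7.59e-05) and -2.20 ± 0.22 (adjusted p = 1.83e-06). Fanci, whose exons overlap Polg on the opposite strand over 16.0% of their length, fell by 1.05, 1.63 and 2.28 on the log2 scale. In HGS2, Fancd2 was at 14.9, 9.58 and 7.11 CPM in TP1 controls and 8.60, 8.67, 12.8 and 9.92 CPM in TP2 controls. It was at 14.2, 12.04 and 6.27 CPM in TP1 chemo, 9.52, 11.1 and 10.7 CPM in TP2 chemo and 10.3, 5.97 and 8.50 CPM in TP3 chemo tumors, ranges that overlapped those of the controls.

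BRCA1 and BARD1 pair into a ubiquitin ligase that steers breaks toward recombination, PALB2 links BRCA1 to BRCA2, BRCA2 acts in the central step of recombination, and BRIP1 is a helicase that binds BRCA1. All 5 genes were lower in 60577 at TP2 and TP3, and all but Brca1 at TP1. Bard1 was at 21.998, 20.2 and 22.8 CPM in TP1 controls and 19.1, 21.4 and 19.4 CPM in TP2 controls. It was at 8.04, 7.51 and 6.52 CPM in TP1 chemo tumors, 6.46, 6.82, 6.54 and 6.78 CPM at TP2 and 4.43, 3.99, 4.69 and 5.32 CPM at TP3. The groups were far apart, with log2 fold changes of -1.55 ± 0.12 (adjusted p = 2.23e-06), -1.60 ± 0.11 (adjusted p = 2.94e-07) and -2.11 ± 0.11 (adjusted p = 7.41e-09). Brca2 was at 55.8, 42.2 and 42.1 CPM in TP1 controls and 18.4, 20.1 and 13.5 CPM in TP1 chemo tumors (-1.42 ± 0.22). It was at 32.7, 37.9 and 46.9 CPM in TP2 controls, 15.0, 20.4, 19.3 and 19.6 CPM in TP2 chemo tumors (-1.09 ± 0.20) and 11.5, 8.24, 11.5 and 16.4 CPM in TP3 chemo tumors (-1.71 ± 0.20). Each chemo tumor was below each control. Brip1 was at 10.98 to 16.7 CPM in the controls of 60577 and at 2.39 to 7.199 CPM in its chemo tumors, with log2 fold changes of -1.34 ± 0.22, -1.42 ± 0.20 and -2.07 ± 0.20.

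Brca1 changed less at first and more later. It was at 11.1, 12.8 and 13.1 CPM in TP1 controls and 10.6, 7.86 and 11.1 CPM in TP1 chemo tumors, which touched the control range (log2 fold change -0.32 ± 0.16, adjusted p = 0.146). In TP2 controls it was at 12.03, 11.1 and 12.1 CPM, in TP2 chemo tumors at 6.67, 7.62, 7.67 and 8.11 CPM (-0.66 ± 0.15, adjusted p = 0.00188) and in TP3 chemo tumors at 4.97, 3.62, 4.65 and 5.44 CPM (-1.32 ± 0.15, adjusted p = 6.06e-06). Palb2 fell by 0.73, 0.48 and 0.84 on the log2 scale. In HGS2, Brca1 was at 39.7, 18.1 and 12.9 CPM in TP1 controls and 31.4, 26.8 and 13.4 CPM in TP1 chemo tumors, and at 22.4, 17.1, 28.3 and 20.0 CPM in TP2 controls. It was at 24.7, 26.6 and 23.7 CPM in TP2 chemo tumors and 27.8, 11.4 and 22.6 CPM in TP3 chemo tumors. Chemo and control ranges of HGS2 overlapped at each time, and the 95% interval of the TP2 log2 fold change was -0.62 to 0.99. Bard1 in HGS2 was at 22.5, 9.23 and 4.56 CPM and 9.86, 9.79, 16.7 and 10.2 CPM in TP1 and TP2 controls, and at 15.1, 12.7 and 7.28 CPM in TP1 chemo, 13.9, 14.4 and 13.6 CPM in TP2 chemo and 12.8, 7.47 and 10.02 CPM in TP3 chemo tumors. Brca2 in HGS2 was at 14.6 to 27.3 CPM in controls and 11.3 to 25.7 CPM in chemo tumors, and Brip1 at 5.96 to 19.7 CPM and 8.16 to 16.4 CPM.

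RAD51B, RAD51C, RAD51D and XRCC2 form one complex of homologous recombination, and RAD51C forms another with XRCC3. In 60577, 4 of these 5 genes were lower in each comparison, and Rad51d was higher at TP2 (0.50 ± 0.11) and TP3 (0.47 ± 0.11). Rad51c was at 5.90, 6.07 and 6.23 CPM in TP1 controls and 2.66, 2.41 and 2.06 CPM in TP1 chemo tumors (-1.34 ± 0.19, adjusted p = 0.000145). It was at 6.23, 7.15 and 5.97 CPM in TP2 controls, 1.79, 1.68, 2.16 and 1.93 CPM in TP2 chemo tumors (-1.78 ± 0.18, adjusted p = 4.32e-06) and 1.37, 1.23, 2.04 and 1.78 CPM at TP3 (-1.997 ± 0.18, adjusted p = 6.85e-07). Control and chemo tumors did not overlap. Rad51b was at 5.10, 4.89 and 5.35 CPM in TP1 controls and 1.97, 1.77 and 1.82 CPM in TP1 chemo tumors (-1.45 ± 0.19), its lowest levels. Against 4.19, 4.26 and 4.78 CPM in TP2 controls, it was at 2.65, 3.03, 3.44 and 3.21 CPM at TP2 (-0.53 ± 0.17) and 3.06, 2.26, 2.46 and 3.78 CPM at TP3 (-0.60 ± 0.17). Its TP2 call was lost without TP2 control 3 (-0.47, adjusted p = 0.0548). Xrcc3, at 3.38 to 4.35 CPM in controls and 1.10 to 2.16 CPM in chemo tumors, fell by 1.12, 1.23 and 1.60 on the log2 scale, and Xrcc2 by 0.94, 0.44 and 0.79.

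In HGS2 these 5 genes varied without a call. Rad51c was at 1.74 to 4.66 CPM in controls and 2.07 to 4.37 CPM in chemo tumors. Xrcc3 was at 5.52, 9.01 and 5.11 CPM in TP1 controls and 17.7, 4.09 and 5.22 CPM in TP1 chemo tumors, of which replicate 1 stood far above the rest. It was at 7.48, 8.67, 10.4 and 7.58 CPM in TP2 controls and 4.30, 6.76 and 4.83 CPM in TP2 chemo tumors, all 3 of which were below the 4 controls, and the log2 fold change was -0.69 ± 0.42 (adjusted p = 0.69).

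RAD54L and RAD54B are translocases that help a broken end invade the sister strand, and BLM is the helicase that takes joined strands apart. All 3 genes were lower in 60577 at each time point. Rad54b had the largest change of the 39 genes at TP1 and TP3. It was at 13.5, 12.3 and 14.3 CPM in TP1 controls and 3.66, 3.19 and 3.38 CPM in TP1 chemo tumors (-1.96 ± 0.22, adjusted p = 2.72e-05). It was at 11.04, 10.3 and 12.2 CPM in TP2 controls, 2.01, 4.01, 3.30 and 3.57 CPM at TP2 (-1.81 ± 0.20, adjusted p = 8.47e-06) and 1.30, 1.33, 1.52 and 2.05 CPM at TP3 (-2.84 ± 0.21, adjusted p = 1.1e-07). No chemo tumor reached the control range. Exons of Rad54b overlap Fsbp on the same strand and Gm11832 on the opposite strand, together over 35.9% of their length. Part of this count may therefore belong to Fsbp. Rad54l, whose exons overlap Lrrc41 on the opposite strand over 15.4% of their length, fell by 0.91, 0.81 and 1.82 and Blm by 0.93, 1.00 and 1.43 on the log2 scale. In HGS2, Rad54b was at 2.55 to 7.87 CPM in controls and 2.21 to 7.88 CPM in chemo tumors.

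**Figure D2:**
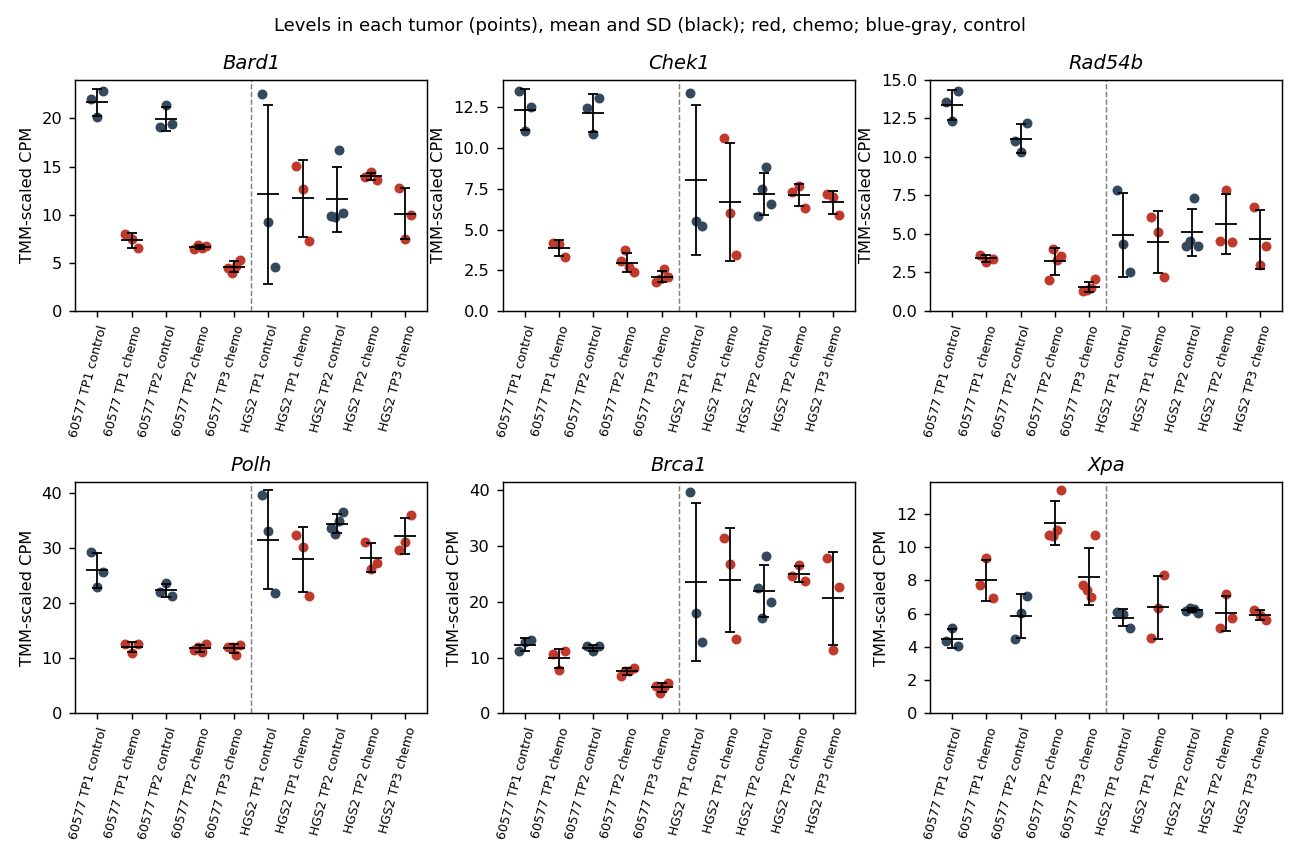
Level of 6 of the genes in TMM-scaled CPM (vertical axes, linear from 0) in each tumor (points, red for chemo and blue-gray for control), with the mean and SD of each group in black and a dashed line between 60577 on the left and HGS2 on the right. Chemo tumors of 60577 lay below their controls for Bard1, Chek1, Rad54b and Polh, Brca1 fell further at TP3, and Xpa was highest at TP2.

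Most called genes of nucleotide excision repair were higher in 60577. Of its 7 genes, 4, 4 and 3 were higher at TP1, TP2 and TP3, where 17.1%, 29.2% and 25.3% of all genes were higher. Xpc was lower at TP2 and TP3, where 29.2% and 26.0% of all genes were lower. XPA checks the damage and holds the repair factors in place, and Xpa was at 4.34, 5.12 and 4.05 CPM in TP1 controls and 7.70, 9.35 and 6.94 CPM in TP1 chemo tumors (0.84 ± 0.20, adjusted p = 0.0056). It was at 4.46, 6.03 and 7.08 CPM in TP2 controls, 10.7, 10.7, 11.02 and 13.4 CPM at TP2 (0.96 ± 0.19, adjusted p = 0.000723) and 7.71, 7.41, 7.01 and 10.8 CPM at TP3 (0.50 ± 0.19, adjusted p = 0.038), where the lowest chemo tumor lay within the control range. ERCC4 (XPF) and ERCC1 form the nuclease that cuts on the 5′ side of the damage and also acts on crosslinks, and ERCC5 (XPG) cuts on the 3′ side. Ercc4 was higher by 0.50, 0.64 and 0.42 on the log2 scale, and its calls were lost at TP1 without TP1 control 1 or 3 or TP1 chemo 2 or 3 (adjusted p = 0.0519 to 0.0874) and at TP3 without TP2 control 1 or 2 or TP3 chemo 4 (adjusted p = 0.0706 to 0.102). Ercc5 was called at TP2 (0.89 ± 0.15) and TP3 (0.41 ± 0.15), at TP3 not without TP2 control 1 or 2 or TP3 chemo 1, 3 or 4 (adjusted p = 0.0510 to 0.122). The TP3 call of Xpa was lost without TP2 control 1 or 2 or TP3 chemo 1 or 4 (0.33 to 0.53, adjusted p = 0.0505 to 0.177). Ercc1 was at 8.15, 7.84 and 8.85 CPM in TP1 controls and 11.5, 10.3 and 13.5 CPM in TP1 chemo tumors (0.51 ± 0.16, adjusted p = 0.0263), all 3 of which were above the controls. The call of Ercc1 was lost without TP1 control 1, TP1 control 2, TP1 chemo 1 or TP1 chemo 3 (log2 fold change 0.40 to 0.53, adjusted p = 0.0538 to 0.115). At later times Ercc1 was at 10.4, 10.9 and 6.96 CPM in TP2 controls, 9.65, 10.4, 10.5 and 11.2 CPM at TP2 and 11.9, 10.7, 10.4 and 9.55 CPM at TP3, which overlapped.

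ERCC2 and ERCC3 are the helicases of TFIIH that open the DNA. Ercc3 was higher at TP1 (0.34 ± 0.08) and Ercc2 at TP2 (0.66 ± 0.17). Exons of Ercc2 overlap Klc3 and another gene on the opposite strand and Mir343 on the same strand, together over 42.7% of their length. XPC finds the damage across the genome. Xpc was at 29.4, 34.3 and 36.2 CPM in TP1 controls and 34.2, 34.3 and 27.8 CPM in TP1 chemo tumors (-0.04 ± 0.12, adjusted p = 0.815). It was at 37.7, 44.3 and 45.9 CPM in TP2 controls, 28.8, 35.6, 34.8 and 34.6 CPM in TP2 chemo tumors (-0.36 ± 0.11, adjusted p = 0.0121) and 35.7, 32.0, 30.0 and 34.6 CPM in TP3 chemo tumors (-0.36 ± 0.11, adjusted p = 0.0143), so the TP2 controls were the highest group. The TP3 call of Xpc was lost without TP2 control 2 (-0.32, adjusted p = 0.0551) or TP2 control 3 (-0.31, adjusted p = 0.0589). In HGS2, Xpa was at 5.16 to 6.35 CPM in controls and 4.52 to 8.30 CPM in chemo tumors. Ercc1 was at 8.96 to 16.3 CPM in controls and 10.7 to 14.4 CPM in chemo tumors, and Xpc at 13.8 to 23.8 CPM and 15.6 to 22.3 CPM.

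MUS81 cuts branched DNA at stalled forks and SLX4 is the scaffold that holds several nucleases. Mus81 was higher in 60577 at TP2 only (0.53 ± 0.17, adjusted p = 0.0126, but 0.44 with adjusted p = 0.0572 without TP2 control 3), and Slx4 was not called (log2 fold changes of -0.26, -0.01 and -0.37).

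ATR and ATM are the kinases that sense stalled forks and breaks, and CHEK1 and CHEK2 carry their signals. Chek1 was at 13.5, 11.03 and 12.5 CPM in TP1 controls and 4.16, 4.11 and 3.34 CPM in TP1 chemo tumors of 60577 (-1.67 ± 0.18, adjusted p = 2.24e-05). It was at 12.5, 10.9 and 13.1 CPM in TP2 controls, 3.05, 3.72, 2.71 and 2.41 CPM in TP2 chemo tumors (-2.04 ± 0.17, adjusted p = 1.17e-06) and 1.77, 1.96, 2.55 and 2.08 CPM in TP3 chemo tumors (-2.53 ± 0.17, adjusted p = 5.05e-08). It was the largest change of the 39 genes at TP2, and the 11 chemo tumors lay below the 6 controls. Chek2 fell by 0.59, 0.96 and 1.08 on the log2 scale. Atm changed less. It was at 79.1, 77.2 and 72.3 CPM in TP1 controls and 54.6, 61.1 and 53.1 CPM in TP1 chemo tumors (-0.43 ± 0.09, adjusted p = 0.00279), at 65.4, 66.1 and 76.1 CPM in TP2 controls, 65.7, 68.2, 70.2 and 76.9 CPM at TP2 (0.01 ± 0.09) and 57.7, 54.8, 57.6 and 65.1 CPM at TP3 (-0.23 ± 0.09, adjusted p = 0.0397). The TP3 call of Atm was lost without any 1 of TP2 controls 2 and 3 and TP3 chemo 1, 2 and 3 (-0.25 to -0.16, adjusted p = 0.0562 to 0.178). Atr was lower at TP1, at 34.7, 41.0 and 38.8 CPM against 57.7, 49.6 and 52.6 CPM (-0.47 ± 0.10, adjusted p = 0.00284). At TP2 it was at 48.7, 49.4, 57.2 and 55.6 CPM against 39.8, 46.5 and 51.0 CPM in controls, and at TP3 at 42.9, 43.0, 42.0 and 42.6 CPM, with no call. Without TP2 control 3, Atr was called higher at TP2 (0.27, adjusted p = 0.0423).

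In HGS2 the checkpoint genes did not separate. Chek1 was at 13.4, 5.55 and 5.21 CPM in TP1 controls and 10.6, 6.04 and 3.43 CPM in TP1 chemo tumors. It was at 5.84, 7.51, 8.82 and 6.55 CPM in TP2 controls, 7.31, 7.68 and 6.35 CPM in TP2 chemo tumors and 7.16, 7.01 and 5.86 CPM in TP3 chemo tumors. The 95% interval of its TP2 log2 fold change was -0.80 to 0.76, which leaves out the value of 60577. Atm was at 46.0 to 79.4 CPM in controls and 45.9 to 64.2 CPM in chemo tumors, and Atr at 39.8 to 49.96 CPM and 37.4 to 52.99 CPM.

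Translesion polymerases copy past adducts. POLH inserts bases opposite platinum adducts within a strand, REV3L is the catalytic subunit of the polymerase that extends from them, and REV1 recruits the others. Polh was at 29.3, 22.9 and 25.7 CPM in TP1 controls and 12.5, 10.9 and 12.7 CPM in TP1 chemo tumors of 60577 (-1.10 ± 0.11, adjusted p = 1.55e-05). It was at 22.02, 23.6 and 21.3 CPM in TP2 controls, 11.5, 12.001, 11.1 and 12.5 CPM at TP2 (-0.93 ± 0.10, adjusted p = 8.12e-06) and 12.03, 12.1, 10.7 and 12.4 CPM at TP3 (-0.91 ± 0.10, adjusted p = 5.65e-06). The chemo level of Polh was nearly the same at the 3 times and below all controls. Rev3l was lower at TP1, at 73.0, 78.5 and 70.4 CPM against 95.8, 85.7 and 94.0 CPM (-0.30 ± 0.10, adjusted p = 0.0291), a call lost without TP1 control 1, TP1 control 3, TP1 chemo 1 or TP1 chemo 3 (-0.30 to -0.27, adjusted p = 0.0787 to 0.0992). In the other 60577 tumors Rev3l was at 77.0, 73.8 and 94.8 CPM in TP2 controls, 84.5, 82.4, 97.5 and 90.4 CPM at TP2 and 82.6, 85.5, 79.4 and 77.9 CPM at TP3. Rev1, which overlaps Eif5b on the opposite strand over 26.6% of its exons, had log2 fold changes of -0.20, 0.20 and -0.16. In HGS2, Polh was at 39.7, 33.1 and 21.9 CPM and 33.7, 32.6, 34.9 and 36.7 CPM in TP1 and TP2 controls, and at 32.4, 30.2 and 21.4 CPM in TP1 chemo, 31.2, 26.2 and 27.4 CPM in TP2 chemo and 29.7, 31.1 and 36.0 CPM in TP3 chemo tumors. The TP2 chemo tumors lay below the TP2 controls (-0.29 ± 0.18, adjusted p = 0.69). Rev3l in HGS2 was at 57.8 to 120.4 CPM in controls and 53.6 to 94.4 CPM in chemo tumors.

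Other measures moved with these changes in 60577. All 22 genes of a cell cycle list, among them Mki67, Top2a and Cdk1, were lower in each of the 3 comparisons, with median log2 fold changes of -1.55, -2.18 and -2.61. Their summed level was 1785 to 1954 CPM in the 6 controls, 553 to 681 CPM in TP1, 371 to 584 CPM in TP2 and 315 to 429 CPM in TP3 chemo tumors, and in HGS2 it was 480 to 2183 CPM in controls and 614 to 1457 CPM in chemo tumors. Of 10 p53 targets, 10, 8 and 7 were higher in 60577. In HGS2 none of the 10 was called by edgeR (4, 4 and 1 at an unadjusted p below 0.05), but their summed level was 540 to 638 CPM in TP1 chemo tumors against 388 to 400 CPM in TP1 controls, and 466 to 568 CPM in TP2 chemo tumors against 324 to 432 CPM in TP2 controls, ranges that did not overlap. The tested epithelial markers were lower (6, 7 and 7 of 7), the summed level of the 9 markers being 206 to 636 CPM in chemo tumors. The 5 adipocyte markers were higher at each time, T cell markers in 2, 5 and 5 of 5 and B cell markers in 0, 4 and 4 of 4. Of 7 fibroblast markers 5, 3 and 4 were higher and 0, 1 and 1 lower, with a summed level of 4033 to 7214 CPM in controls and 9732 to 15780 CPM in TP1 chemo tumors. Of 4 macrophage markers 1, 1 and 3 were higher. Neutrophil markers were higher at TP1 (3 of 3) and lower at TP2 and TP3 (2 of 3). In these 3 comparisons of 60577, 17.1%, 29.2% and 25.3% of all genes were higher and 16.2%, 29.2% and 26.0% lower. With the mean log2 CPM of the cell cycle genes as a covariate, 1 (Slx4), 0 and 0 of the 39 genes were called. With the epithelial markers 2 (Bard1 and Polh), 0 and 0 were called. Calls were lost over all 16241 genes too, of which 659, 0 and 0 were called with the cell cycle covariate and 231, 0 and 8 with the epithelial one. Both covariates separate control from chemo tumors in 60577 with no overlap, so their part in these results cannot be told apart from treatment.

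Treated 60577 tumors also differed between TP1 and TP3. Of the 39 genes, 14 were lower and 2 higher at TP3 than at TP1, against 14% and 12.5% of all genes, and 7 were lower by over 1 on the log2 scale, against 5.15%. Those lower included Fanca (-1.20 ± 0.24), Rad54l (-1.16 ± 0.16), Fanci (-1.14 ± 0.19), Brca1 (-1.07 ± 0.15) and Fancd2 (-1.03 ± 0.22). Rad51b (0.65 ± 0.18) and Fancc (0.51 ± 0.15) were higher, Rad51b having been lowest at TP1. Their calls were lost without TP1 chemo 2 or 3 for Rad51b (adjusted p = 0.0502 to 0.0630) and without TP1 chemo 1 or 3 for Fancc (adjusted p = 0.0661 to 0.107). Brca2 had -0.53 ± 0.20 (adjusted p = 0.0661) and was called lower without TP3 chemo 4 (-0.72, adjusted p = 0.0162). Between TP1 and TP2 controls of 60577, 0 of the 39 genes and 0% of all genes were called by edgeR, with 4 of the 39 and 1502 genes at an unadjusted p below 0.05. None of the 39 was called by limma-voom or DESeq2 there, and DESeq2 called 107 of all genes.

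The response to chemo differed between the models most clearly at TP2. In a joint fit, the log2 fold change of HGS2 minus that of 60577 was called above 0 for 10 of the 39 genes and below 0 for 2, against 6.00% and 4.33% of all genes. The difference was 2.01 ± 0.41 for Chek1 (adjusted p = 0.00618), 1.95 ± 0.40 for Rad51c (adjusted p = 0.00663) and 1.88 ± 0.42 for Brip1 (adjusted p = 0.00886). Rad54b, Bard1, Fanci, Fancd2 and Brca2 followed with 1.94, 1.85, 1.69, 1.51 and 1.28. The difference was smaller for Chek2 (0.73 ± 0.21) and Polh (0.63 ± 0.21, adjusted p = 0.0494), and the call of Polh was lost without any 1 of the 14 TP2 tumors (0.56 to 0.69, adjusted p = 0.0521 to 0.131). Each of these 10 genes was called lower in 60577 and was not called in HGS2. The call of Chek2 was lost without any 1 of HGS2 TP2 control 2, HGS2 TP2 chemo 1, 2 and 3, 60577 TP2 controls 1 and 2 and 60577 TP2 chemo 4 (0.62 to 0.75, adjusted p = 0.0518 to 0.0984) and with the replicate number as a block (0.76, adjusted p = 0.0506). Xpa (-1.01 ± 0.27) and Ercc5 (-0.91 ± 0.24) were the genes below 0, having risen in 60577. Xpa lost its call without HGS2 TP2 chemo 1 or 3, 60577 TP2 control 1 or 2 or 60577 TP2 chemo 4 (-1.04 to -0.85, adjusted p = 0.0524 to 0.0659), and Ercc5 without HGS2 TP2 chemo 1, 60577 TP2 control 2 or 60577 TP2 chemo 4 (-0.84 to -0.77, adjusted p = 0.0508 to 0.0696).

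At TP1 the difference was called above 0 for 3 of the 39 genes and below 0 for none, against 0.616% and 1.16% of all genes. They were Rad51b (1.497 ± 0.31, adjusted p = 0.0139), Brca2 (1.39 ± 0.36, adjusted p = 0.0406) and Polh (0.93 ± 0.22, adjusted p = 0.03). Rad51b was at 3.66, 2.86 and 2.60 CPM in TP1 controls and 3.10, 3.22 and 3.05 CPM in TP1 chemo tumors of HGS2. The call of Brca2 was lost without HGS2 TP1 control 2 or 3, HGS2 TP1 chemo 1, any 60577 TP1 control or 60577 TP1 chemo 1 or 3 (1.11 to 1.45, adjusted p = 0.0517 to 0.146) and without the pancreas-rich tumors (1.27, adjusted p = 0.0567). That of Polh was lost without HGS2 TP1 control 3, HGS2 TP1 chemo 1, 60577 TP1 control 1 or 3 or any 60577 TP1 chemo tumor (0.72 to 0.97, adjusted p = 0.0507 to 0.115). The count of 3 depended on single tumors, as did that of all genes, which was 288 of 16241. It was 13 without HGS2 TP1 control 1, 9 without HGS2 TP1 chemo 3 and 5 without HGS2 TP1 chemo 2. Of all genes, 798, 431 and 456 were called in these fits. The count was 1 without HGS2 TP1 chemo 1, 60577 TP1 control 1 or 3, or 60577 TP1 chemo 1 or 3. In those fits 68 to 134 of all genes were called. DESeq2 called 12, and 997 of all genes. Without the 3 pancreas-rich tumors the counts were 3 at TP1 and 15 at TP2. Of all genes, 454 and 2134 were then called, against 288 and 1678 with these tumors.

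**Figure D3:**
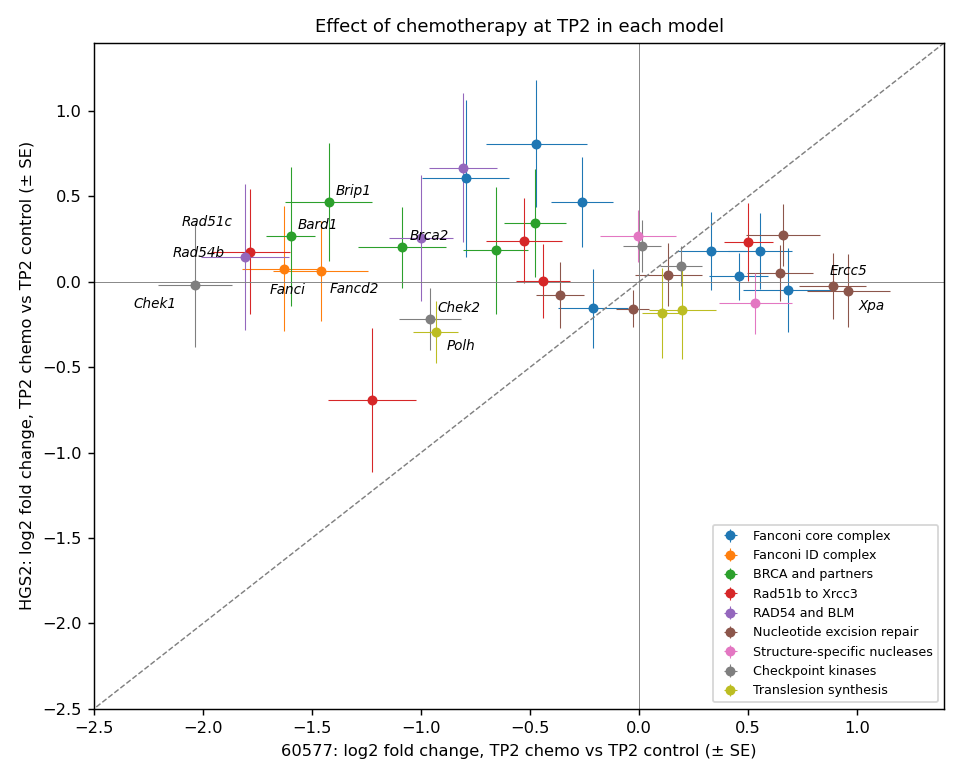
Log2 fold change of chemo against control at TP2 in 60577 (horizontal) and HGS2 (vertical) for the 39 genes, colored by role, with SE as bars, the dashed line of equal change and names for the 12 genes whose change differed between the models. The named genes at the left lie between -0.29 and 0.47 in HGS2 and between -2.04 and -0.93 in 60577, and Xpa and Ercc5 lie at the right.

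Within HGS2, tumors with more expression of the cell cycle list had more of several recombination genes. The score was the mean log2 CPM of the 22 cell cycle genes over the 16 fitted HGS2 tumors, and each of 39 correlations was tested with 100000 permutations of the tumors, two-sided, with adjustment over all 16241 genes. Pearson's r passed for 11 of the 39 genes as positive and for 2 as negative, where 4.59% and 2.97% of all genes passed. Bard1 had r = 0.916 (permutation p = 1e-05, the smallest these permutations can give, adjusted p = 0.00123) and Spearman's rho = 0.827 (permutation p = 1e-04, adjusted p = 0.0123), and r = 0.79 without the 2 tumors farthest from the median score. Those 2 tumors were TP1 controls 1 and 3, of which the latter is pancreas-rich. Fanci (r = 0.856), Brca1 (0.849), Brip1 (0.838), Rad54b (0.836) and Fancd2 (0.818) passed in both measures, with r of 0.766, 0.77, 0.677, 0.792 and 0.804 without these 2 tumors. So did Rad54l, Brca2 and Blm. Chek1 (r = 0.813, rho = 0.6, adjusted p = 0.0169 and 0.188) and Polh (r = 0.743, rho = 0.327, adjusted p = 0.0265 and 0.565) passed for Pearson's r alone, and Fanca (r = 0.584, rho = 0.774, adjusted p = 0.12 and 0.0414) for Spearman's rho alone. Without the 3 pancreas-rich tumors 7 of these genes passed as positive, Bard1, Fanci, Brca1, Brip1, Rad54b, Fancd2 and Chek1, and Xpc as negative, against 2.24% and 0.696% of all genes, with Pearson's r adjusted over all genes as before.

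Xpc ran opposite to the score, with r = -0.871 (permutation p = 8e-05, adjusted p = 0.00459), rho = -0.762 (permutation p = 0.00108, adjusted p = 0.0517) and r = -0.724 without the 2 tumors. Ercc5 had r = -0.717 (adjusted p = 0.0387) and rho = -0.465 (adjusted p = 0.362), and its r was -0.41 without the 2 tumors. Rad51b, Rad51c, Rad51d, Xrcc2 and Xrcc3, whose r ranged from -0.584 to 0.417, did not pass. With each group centered on its mean, r was 0.964 for Bard1 and -0.915 for Xpc, and over the 13 tumors that were not pancreas-rich it was 0.862 and -0.867. The tumors share neither library nor mouse, but their levels share the same scaling.

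**Figure D4:**
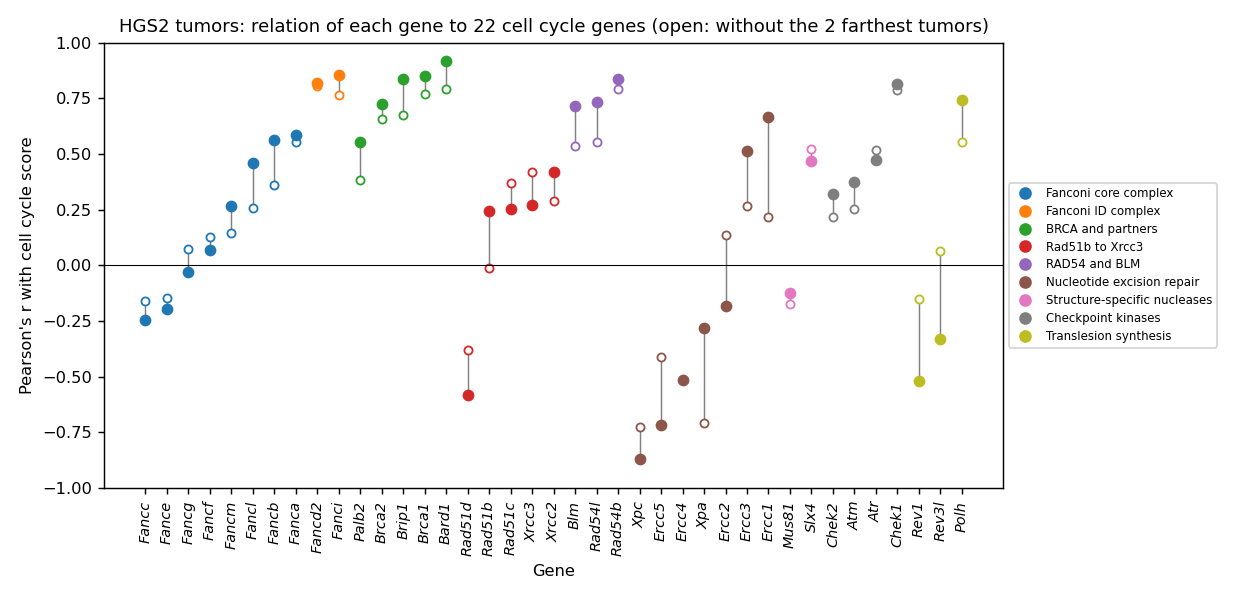
Pearson's r of each of the 39 genes with the cell cycle score across 16 HGS2 tumors (filled) and across those left after removal of the 2 tumors farthest from the median score (open), grouped by role. The Fanconi ID, BRCA and RAD54 and BLM genes lie between 0.556 and 0.916, Bard1 highest, and Xpc lies lowest at -0.871.

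Untreated tumors of the models differed in about as large a share of these genes as of all genes. In HGS2 controls against 60577 controls 13 of the 39 genes were lower and 8 higher, against 23.4% and 28.1% of all genes (16 lower and 7 higher without the pancreas-rich tumors), and 5 were lower by over 1 on the log2 scale, against 8.81%. Rad54b was at 10.3 to 14.3 CPM in 60577 and 2.55 to 7.87 CPM in HGS2 controls (-1.29 ± 0.25, adjusted p = 0.000155). Brca2 was at 32.7 to 55.8 CPM and 14.6 to 27.3 CPM (-1.21 ± 0.17, adjusted p = 2.37e-06), with no overlap, and Rad51c at 5.90 to 7.15 CPM and 1.74 to 4.66 CPM (-1.04 ± 0.21, adjusted p = 0.000199). The other 2 were Xpc (-1.03 ± 0.11) and Fancg (-1.02 ± 0.16). Brca1 was higher in HGS2 controls (0.92 ± 0.22, adjusted p = 0.00131), as were Xrcc3 (0.98 ± 0.24) and Fancc (0.72 ± 0.13), so Brca1 and Brca2 differed in opposite directions. The call of Atr (-0.20) was lost without HGS2 TP1 control 2 or 3, HGS2 TP2 control 4, 60577 TP1 control 1 or 60577 TP2 control 2 or 3 (-0.20 to -0.17, adjusted p = 0.0522 to 0.0879).

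In monoculture, Xrcc3 was higher in HGS2 (8.12 and 11.8 CPM) than in 60577 (3.57 and 2.63 CPM), and the log2 fold change was 1.69 ± 0.34 (adjusted p = 0.0278). Fancl was lower (4.32 and 5.64 against 11.1 and 10.6 CPM, -1.12 ± 0.27, adjusted p = 0.0441). Without either 60577 replicate neither was called, and Fancl was also lost without HGS2 replicate 1 (adjusted p = 0.0508 to 0.256 for Fancl and 0.108 to 0.205 for Xrcc3). These were the 2 genes called of the 39, 1 in each direction, against 9.10% of all 13742 genes higher and 9.82% lower. Both differed in the same direction in control tumors, where Fancl was at 6.56 to 8.43 CPM in 60577 and 3.00 to 5.80 CPM in HGS2 (-0.93 ± 0.14). The HGS2 cultures were far apart. Replicate 1 had 1326 CPM of the cell cycle genes and replicate 2 had 3702 CPM (3891 and 4268 CPM in 60577). Chek1 was at 5.02 and 13.7 CPM, Fancd2 at 8.50 and 28.7 CPM and Brca1 at 22.7 and 54.0 CPM in these cultures. In 60577 cultures Chek1 was at 20.0 and 20.3 CPM, Fancd2 at 34.5 and 30.8 CPM and Brca1 at 27.0 and 18.5 CPM. Fits without 1 culture leave a lone library, assumed to vary like the other line, so no count of genes called is given for them. Without HGS2 replicate 2 the log2 fold change was -1.90 for Fancd2 and -1.95 for Chek1. Without HGS2 replicate 1 it was 1.25 for Brca1. Xpc (16.9 and 18.7 against 27.0 and 43.9 CPM, adjusted p = 0.0665) and Brca2 (13.6 and 24.97 against 35.5 and 48.9 CPM, adjusted p = 0.0798) were not called. Levels of further genes are given for the 60577 and then the HGS2 cultures. Bard1 was at 31.3 and 32.5 CPM and 12.2 and 25.8 CPM, and Rad54b at 19.6 and 15.3 CPM and 4.82 and 10.7 CPM. Rad51c, at 9.57 and 9.46 CPM and 7.52 and 11.4 CPM, overlapped between the lines, and Polh was at 30.9 and 27.0 CPM and 31.3 and 49.9 CPM. Atm was at 60.0 and 78.3 CPM and 25.9 and 49.7 CPM, and Ercc1 at 13.4 and 12.6 CPM and 11.3 and 13.4 CPM. Atr, at 24.5 and 29.7 CPM and 17.3 and 23.4 CPM, did not overlap between the lines and was not called (adjusted p = 0.279). Rev3l was at 86.3 and 95.6 CPM and 136 and 92.0 CPM, Rad51b at 2.00 and 1.48 CPM and 2.43 and 2.81 CPM, and Xpa at 3.95 and 5.17 CPM and 6.61 and 7.72 CPM.

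Per kilobase of exon, Ercc3 was the most abundant of the 39 genes in 60577 controls, at a mean of 9.45 CPM per kb, followed by Atm (7.03) and Xpc (6.91). Fancc (0.863), Fancb (1.08) and Palb2 (1.14) were the least abundant. In 60577 controls the mean level was 1.52 CPM per kb for Fancd2, 2.64 for Chek1 and 1.43 for Rad51c, and in 60577 monoculture it was 4.11, 4.34 and 2.17. Tumors and cultures came from different material and separate tables, so these are set side by side with no test.

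**Figure D5:**
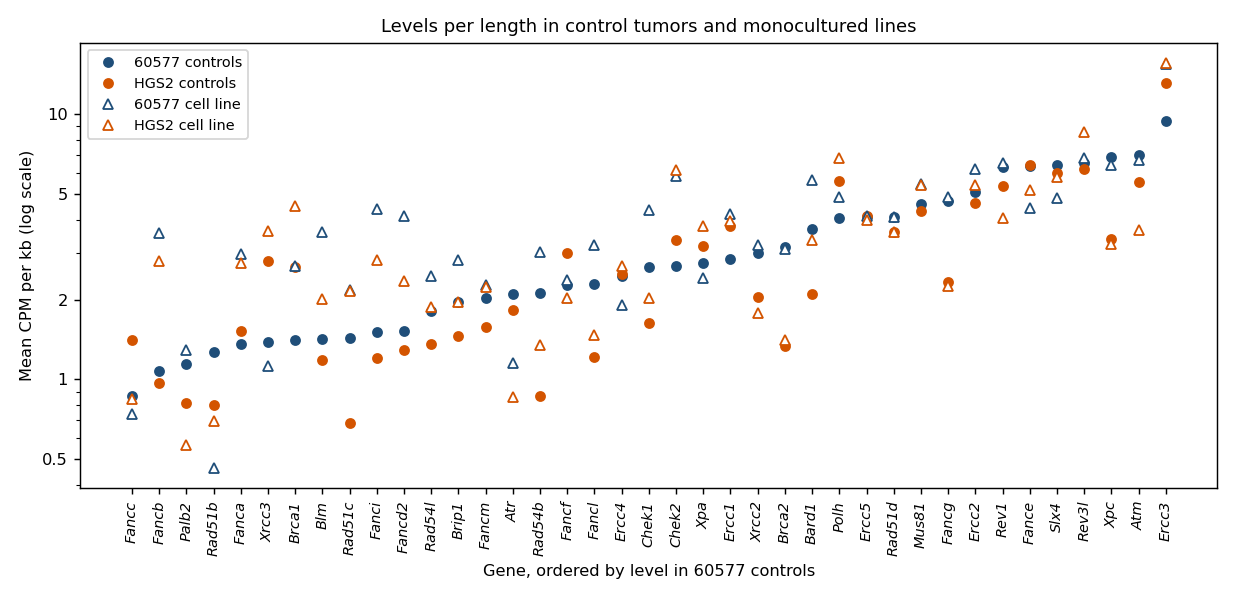
Mean level in CPM per kb of exon (vertical, log scale) of the 39 genes, ordered by their level in 60577 controls, in control tumors (filled, n = 6 for 60577 and 7 for HGS2) and monocultures (open, n = 2 each). Ercc3 is highest in all 4, and genes such as Fancd2, Fanci and Fancb are higher in monoculture than in control tumors of 60577.

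A list of 56 other repair genes, which does not hold the 39, was also tested. In 60577, 32, 33 and 38 of the 56 were lower and 0, 6 and 1 higher at TP1, TP2 and TP3, where 16.2%, 29.2% and 26.0% of all genes were lower and 17.1%, 29.2% and 25.3% higher, with median log2 fold changes of -0.45, -0.47 and -0.54. Among 18 other recombination genes 14, 13 and 14 were lower. Exo1, which resects break ends, fell by 1.81, 2.43 and 3.16 on the log2 scale. Of 10 other Fanconi and crosslink genes 4, 5 and 6 were lower, with Ube2t, the ubiquitin-conjugating enzyme of the pathway, falling by 2.07, 2.79 and 3.41, whereas the crosslink nuclease gene Fan1 was higher at TP2 (0.79 ± 0.20). Of 11 other excision repair genes 3, 4 and 5 were lower, above the shares of 16.2%, 29.2% and 26.0% of all genes. Those higher were 2, both at TP2. Ercc6, which acts when transcription stalls at damage, was 1 of them (0.62 ± 0.19). Of 6 other translesion genes 3, 3 and 5 were lower, among them Polq (log2 fold changes of -1.24, -0.81 and -1.46), and of 11 other checkpoint genes 8 were lower each time. In HGS2 none of the 56 was called by edgeR in chemo against control tumors (1, 2 and 1 at an unadjusted p below 0.05), and at TP2 the difference between models was above 0 for 17 of them and below 0 for none, against 6.00% and 4.33% of all genes, with 3.05 ± 0.61 for Ube2t.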

How the data were processed

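RNA from 34 omental tumors and 4 cell line cultures was sequenced after ribosomal RNA depletion, strand-specific and paired end. The authors trimmed reads with Trim Galore 0.6.5, aligned them to GRCm38 with STAR 2.7.0f and deposited RSEM expected counts per gene, without normalization (RSEM's version and strand setting were not given in the sources used here). Expected counts were rounded, genes that reached 1 CPM in 25% of the libraries or more were kept and libraries were scaled by TMM. edgeR 4.0.16 (quasi-likelihood test) was fitted per model, on both models for differences between them, and on the cell lines apart, with Benjamini-Hochberg adjustment over all genes tested. limma 3.58.1 (voom) and DESeq2 1.42.0 were alternatives, as were other size factors, filters, length and GC offsets, covariates, a replicate block and leaving out each library. The tests were checked on simulated counts.

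The genes, lists and tests were chosen with earlier results of these data known. Values per tumor, or their range, are given for the 3 genes with the smallest p among those called in each chemo comparison, up to 3 called genes in each comparison of the models or lines, and Brca1, Brca2, Fancd2, Ercc1, Xpc, Atm, Atr, Chek1, Rev3l and Polh. Xpa was added after its values were seen. No label says that replicate numbers pair tumors, and over all groups deviations of same-numbered tumors correlated at -0.419 to 0.318 in 60577 and -0.486 to 0.366 in HGS2. At TP2 all 3 same-numbered pairs of control and chemo tumors exceeded 0.1 (0.114 to 0.144 in 60577, 0.138 to 0.296 in HGS2). Between other groups, tumors with different numbers reached 0.626 in HGS2 (TP1 control 3 with TP2 control 2). In 60577 they reached 0.301 (TP1 chemo 2 with TP2 control 3). Correlations of this size cannot show pairing, so blocked values stand beside the TP2 calls they change as an alternative only. All replicate pairs differed by more than sampling noise, and each tumor was its own mouse. For the cultures nothing says that replicates were separate, so their p-values measure the spread between these libraries.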

Additional observations from a re-analysis of the deposited data

Results flagged for a closer look

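Among 17 genes in 3 groups of 4 tumors, 51 groups were checked for a single tumor far from the others, which chance gives in about 1 of 20 groups. In HGS2 TP2 controls, replicate 3 stood above the others for Bard1 (16.7 CPM against 9.80 to 10.2) and Rad54b (7.33 CPM against 4.24 to 4.57). In 60577 TP2 chemo tumors, replicate 1 stood below the others for Xpc (28.8 CPM against 34.6 to 35.6).

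The chemo effect differed between the models, by the test of the difference, for 15 values. On the log2 scale HGS2 minus 60577 was 1.39 for Brca2, 1.5 for Rad51b and 0.93 for Polh at TP1. At TP2 it was 2.01 for Chek1, 1.95 for Rad51c, 1.94 for Rad54b, 1.88 for Brip1, 1.85 for Bard1, 1.69 for Fanci, 1.51 for Fancd2, 1.28 for Brca2, 0.73 for Chek2 and 0.63 for Polh, and it was -1.01 for Xpa and -0.91 for Ercc5.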

How the results depend on the processing

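Without 1 library at a time, the number of the 39 genes called ran from 22 to 23 (60577 TP1), 26 to 29 (TP2) and 21 to 25 (TP3). It ran from 12 to 17 (TP3 against TP1 chemo), 17 to 25 (controls of the models) and 0 to 0 in HGS2 and between 60577 controls. For the difference between models it was 1 to 13 at TP1 and 8 to 15 at TP2, where 68 to 798 and 459 to 2442 of all genes were called. No count is given for the cell lines, where leaving out a culture leaves a lone library. No called gene changed sign. With a log2 fold change beyond 1 required, the counts were 12, 10, 14 and 7 in the 4 chemo comparisons of 60577 and 5 between controls. The cell cycle covariate gave 1, 0, 0 and 5 in these 4 comparisons, where 659, 0, 0 and 2359 of all genes were called. For the difference at TP2 it gave 0, and 2 of all genes. The epithelial covariate gave 2, 0 and 0 at TP1, TP2 and TP3, where 231, 0 and 8 of all genes were called. For the differences it gave 7 and 20, and 486 and 2899 of all genes. Fitting both models together gave 10 for TP3 against TP1 chemo. The difference at TP1 held 1 gene with no filter, 12 with DESeq2 and 1 with all 17 HGS2 tumors. Of all genes, 113, 997 and 179 were called under these settings. The cell lines gave 12 with no filter, 6 with DESeq2, 4 with length and GC offsets and a replicate block, and 1 with the replicate numbers crossed (same-numbered cultures correlated at -0.153). Why these counts moved was not tested.

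Signs of called genes turned only under the covariates, where no turned value was called. With the cell cycle genes, log2 fold changes became 0.032 (Fancd2), 0.12 (Fanci) and -0.25 (Ercc4) at 60577 TP1. At TP2 they became 0.13 (Brca2), 0.23 (Fancd2), 0.065 (Xpc), -0.42 (Fancf), 0.076 (Rad51b), -0.70 (Ercc2), -0.40 (Ercc4), -0.32 (Ercc5) and -0.90 (Mus81). At TP3 they became 0.14 (Xpc), -0.10 (Fancc), 0.091 (Rad51b), -0.77 (Ercc4) and -0.97 (Ercc5), and the difference between models at TP2 became -0.054 for Polh and -0.051 for Bard1. With the epithelial markers they became 0.18 (Xpc), -0.24 (Ercc2) and -0.21 (Mus81) at TP2 and 0.27 (Xpc), -0.27 (Ercc4) and -0.50 (Ercc5) at TP3.

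With the replicate number as a block, 24, 29, 26 and 16 genes were called in the chemo comparisons of 60577, 0 between its controls and in HGS2, 3 and 11 for the differences between models, 20 between controls and 2 between cell lines. At TP2 the block changed the call of Fanca in 60577 and of Chek2 for the difference between models and no other call. In 60577 it removed those of Fancg and Ercc1 at TP1 (adjusted p = 0.0582 and 0.0504) and Xpa at TP3 (0.0820). Rad51c for TP3 against TP1 chemo (0.0546), Fancf between controls (0.0529) and Fancl between cell lines (0.0772) also lost theirs. Brca2 gained a call for TP3 against TP1 chemo (0.0450) and between cell lines (0.0262). Without the pancreas-rich tumors, a choice made after seeing the data, as was the crossing, HGS2 still had 0, and 8 genes passed the correlation with the cell cycle score, against 13 with them and 10 by Spearman's rho. Expected counts of 19456375 or more per fitted tumor limit low genes such as Fancb, Rad51c and Rad51b most. Their median counts over all libraries were 72, 84.5 and 86.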

Other observations

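HGS2 TP3 chemo replicate 1, which the fits leave out, listed Fancb, Fancf and Rad54l at 0. It had 6.48 CPM of Rad51c, 1.75 CPM of Xrcc3, 2.98 CPM of Chek1, 18.6 CPM of Polh, 10.2 CPM of Brca1, 3.68 CPM of Brip1, 17.3 CPM of Ercc1, 35.3 CPM of Ercc5 and 2.45 CPM of Fanca, and its summed level of the 22 cell cycle genes was 554 CPM.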
